A study of Rattus norvegicus with 6 samples.

Results

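A set of 10 interferon-induced effector genes was followed in RNA-seq libraries of rat hippocampal neuron cultures in which S-SCAM (Magi2), a synaptic scaffolding protein, had been knocked down. The genes are Ifit1, Ifit3, Isg15, Usp18, Mx1, Mx2, Ifi27, Bst2, Rtp4 and Lgals9, out of 26405 genes in the count table, of which 9 were found by symbol and Lgals9 by its description. They were chosen by their higher levels in S-SCAM KD than in control cultures, as seen in these same libraries, so that difference is given as a description. Counts of members past a threshold stand beside the share of all genes that passed it, and no p is given for a member. The filter on low counts kept 9 of these 10 members of the set, and Ifit3 was not tested.

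The S-SCAM KD group holds 3 cultures infected at day in vitro (DIV) 2 with a lentivirus that delivers an shRNA against Magi2, and the control group holds 3 cultures infected at DIV2 with a lentivirus carrying the empty shRNA vector. All 6 cultures were prepared from hippocampi of rats of embryonic day 19, and RNA was isolated at DIV9. The lentiviral vector also expresses EGFP, and a single hairpin sequence was used for the sequencing. By the labels the control cultures thus received virus but no hairpin, although the study elsewhere speaks of a control shRNA. With an empty vector as control, the loss of Magi2 and the presence of a hairpin RNA cannot be told apart. The study describes the replicates as independent experiments.

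Interferons are secreted proteins that cells release on sensing foreign nucleic acid. They bind surface receptors, whose kinases activate transcription factors, and these bind with IRF9 to interferon-stimulated response elements (ISRE) in the promoters of many effector genes. In the brain, neurons, astrocytes and microglia can all carry out this response, and many effectors are kept low until interferon is sensed.

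The members have different roles. IFIT1 and IFIT3 belong to a family that binds viral RNA and holds back its translation. ISG15 is a ubiquitin-like protein that is joined to other proteins, and USP18 removes it again and also dampens signalling at the type I interferon receptor. MX1 and MX2 are dynamin-like GTPases that block virus replication. IFI27 is a small membrane protein of the mitochondria, BST2 (tetherin) holds budding virus particles at the cell surface, RTP4 is a receptor-transporting protein with antiviral activity, and LGALS9 (galectin-9) is a sugar-binding protein that acts on immune cells.

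The promoters are shown because the members share a known route of induction through the ISRE. RefSeq promoter sequences (GRCr8, 250 bases before to 50 bases after the start of the gene) were matched for 5 of the 10 members, namely Ifit3, Mx1, Ifi27, Bst2 and Lgals9. The ISRE was searched on both strands as GAAA, any 2 bases and GAAA again, which reads TTTC, any 2 bases and TTTC on the other strand. It was found in 4 of these 5 promoters and in 3.92% of 33469 rat promoters of the same length. The 4 stretches with a match are given 5′ to 3′ along the strand of the gene, with the matching letters in capitals.
Ifit3, chr1:241527262-241527311, + strand: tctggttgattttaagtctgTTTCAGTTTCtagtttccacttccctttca
Ifi27, chr6:128355123-128355257, + strand: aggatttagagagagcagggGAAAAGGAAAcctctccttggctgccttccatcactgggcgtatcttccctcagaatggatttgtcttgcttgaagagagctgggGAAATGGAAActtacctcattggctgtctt
Bst2, chr16:18255063-18255118, - strand: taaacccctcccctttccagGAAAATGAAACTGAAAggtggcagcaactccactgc
Lgals9, chr10:64428071-64428106, - strand: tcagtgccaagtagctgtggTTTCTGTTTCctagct
The letters of Ifit3 and Lgals9 match on the strand opposite to the gene, and those of Ifi27 and Bst2 match on the strand of the gene. In Bst2 the 2 matches overlap, and in Ifi27 they lie apart. The last match ended 6 bases before the start in Lgals9, 34 in Ifit3, 74 in Ifi27 and 115 in Bst2. No match to these letters was found in the Mx1 window. The gamma-activated site, another promoter element of interferon signalling, was searched as TTCNNNGAA, which reads the same on both strands. It was found in 1 of the 5 promoters (Bst2) and in 8.87% of all promoters. A match of letters is a description of the sequence, and binding was not measured.

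A single library, S-SCAM KD replicate 2, stood apart from the other 5 libraries on the first principal component, at -73.7 against -24.2 to 30.4, a component that carried 41.6% of the variance. It was also the most deeply sequenced library, with total counts of 18350062, 29654651 and 21949362 in S-SCAM KD replicates 1 to 3 and 23357757, 13061705 and 24874466 in control replicates 1 to 3. Values without it are therefore given where it decides a count. Levels are CPM, the counts per 1000000 counts, on library sizes scaled by TMM normalization. Log2 fold changes are S-SCAM KD over control from edgeR, given with a standard error (SE). The SE was derived from the edgeR test, as the size of the log2 fold change over the square root of the F statistic. Magi2 itself stood at 30.4, 21.1 and 40.4 CPM in S-SCAM KD replicates 1 to 3 and at 82.8, 74.7 and 95.8 CPM in control replicates 1 to 3. The groups did not overlap, and the S-SCAM KD mean was 36.3% of the control mean (log2 fold change -1.46, SE 0.27, edgeR adjusted p = 0.228, DESeq2 adjusted p = 0.00124).

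All 9 tested members had a higher mean in S-SCAM KD than in control cultures, with log2 fold changes between 1.59 (Mx1) and 4.57 (Ifit1) and a median of 3.76, against a median of -0.02 over 13917 genes. In 5 of the 9 (Ifit1, Usp18, Ifi27, Bst2 and Lgals9) every S-SCAM KD culture lay above every control culture, which held for 7.42% of all genes tested. In the other 4 (Isg15, Mx1, Mx2 and Rtp4) the groups overlapped. In each of these it was S-SCAM KD replicate 2 that reached down into the control range, and without it all 9 were separated, against 12% of genes, and their median was 4.24. At an adjusted p under 0.05, edgeR called 0 of the 9 members and 0 of all genes (0%). At an unadjusted p under 0.05 it counted 8 of the 9 as higher, against 3.69% of all genes. DESeq2 called 7 of them higher, all but Mx1 and Mx2, against 0.249% of genes, and all 9 without S-SCAM KD replicate 2, against 0.326% of genes. These counts come from the contrast that chose the members, so nothing is read from them about the members.

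**Figure D1:**
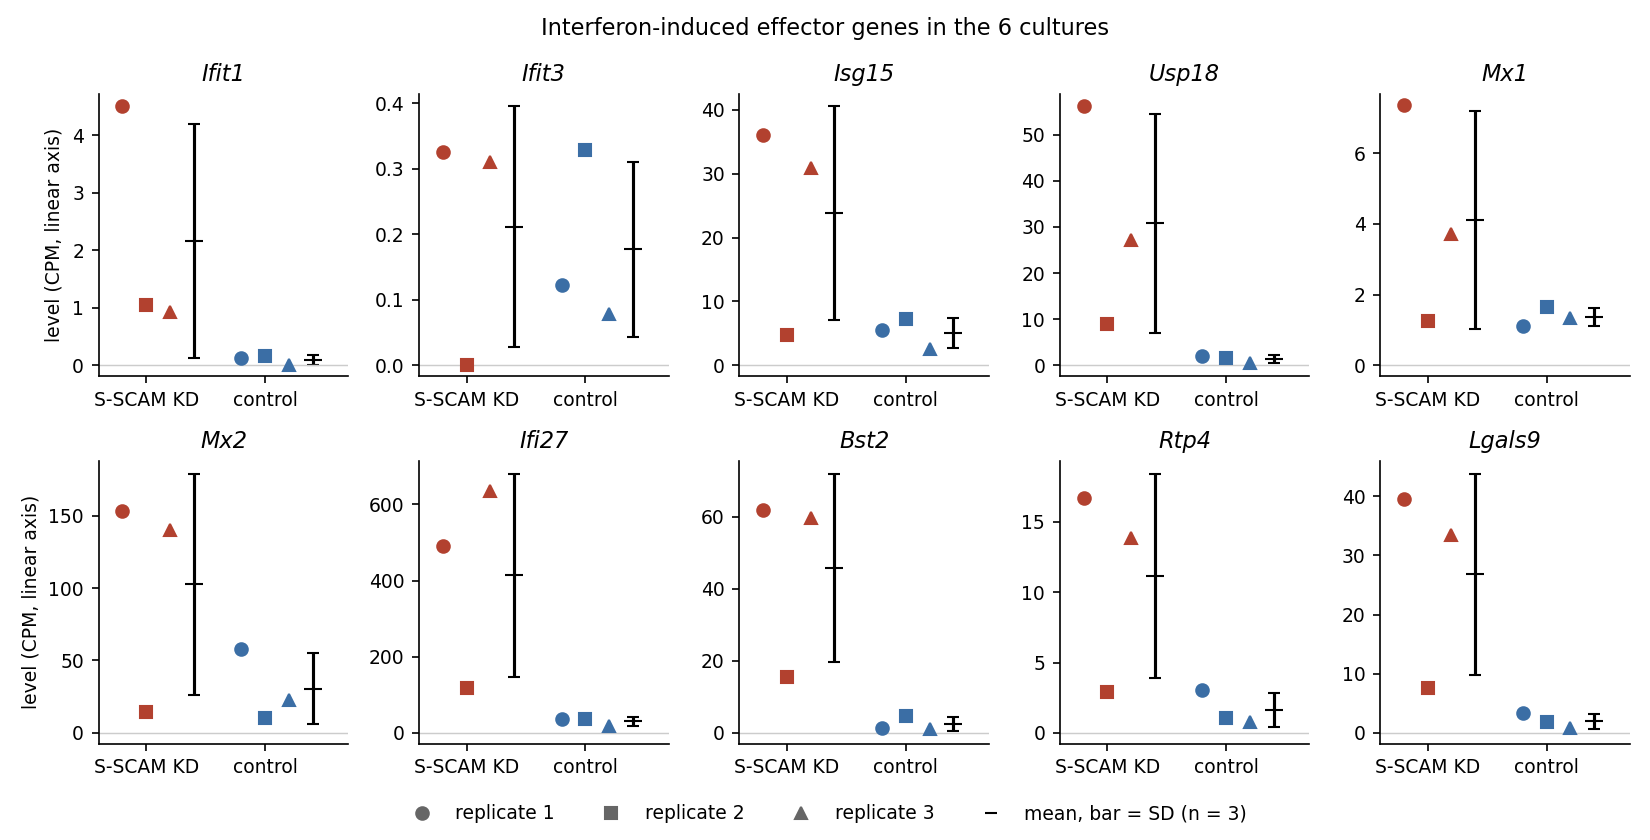
Level of each member in CPM on linear axes that start near 0 and differ between panels, with S-SCAM KD cultures on the left and control cultures on the right of each panel. Symbols are replicates 1 to 3, and the bar gives mean and SD (n = 3). S-SCAM KD replicate 2 (square) lies below S-SCAM KD replicate 1 in all panels, and the groups overlap in Ifit3, Isg15, Mx1, Mx2 and Rtp4.

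Ifit1 (chromosome 1, 260165588 to 260166976, rn5) was nearly silent in control cultures. It had 83, 30 and 21 counts in S-SCAM KD replicates 1 to 3, against 3, 2 and 0 counts in control replicates 1 to 3. In CPM these were 4.50, 1.04 and 0.929 in S-SCAM KD cultures and 0.123, 0.164 and 0 in control cultures. Every S-SCAM KD culture was above every control culture, and replicate 1 stood well above the other S-SCAM KD cultures. The fitted log2 fold change was 4.57 (SE 1.01), a value that rests on 5 control counts in all, and it was 3.48 without S-SCAM KD replicate 1 and 5.05 without control replicate 1.

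Ifit3 (chromosome 1, 260127719 to 260132858), whose promoter carries the ISRE letters given above, lies 32.7 kb from Ifit1. It had 6, 0 and 7 counts in S-SCAM KD replicates 1 to 3 and 3, 4 and 2 counts in control replicates 1 to 3. The groups overlapped, and at 22 counts over all libraries a small difference was not detectable at this depth. A rise like that of Ifit1, from 5 control counts to 134 S-SCAM KD counts, was not seen, with 9 and 13 counts in Ifit3. Ifit2, another gene of the cluster and no member, stood at 2.01, 0.485 and 3.01 CPM in S-SCAM KD cultures and 0.370, 0.820 and 0.197 CPM in control cultures, where replicate 2 of the S-SCAM KD group was again inside the control range. How the authors' counting treated reads that match several related Ifit genes is not given, so single values of the family are uncertain.

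Isg15 (chromosome 5, 177098680 to 177099967) stood at 36.0, 4.71 and 30.9 CPM in S-SCAM KD replicates 1 to 3, against 5.55, 7.22 and 2.53 CPM in control replicates 1 to 3. S-SCAM KD replicates 1 and 3 were far above all controls, whereas replicate 2 lay between control replicates 3 and 1. The log2 fold change was 2.24 (SE 0.70), and 2.76 without S-SCAM KD replicate 2.

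Usp18 (chromosome 4, 220895597 to 220922138), which removes ISG15 from proteins, stood at 56.2, 9.01 and 27.1 CPM in S-SCAM KD replicates 1 to 3, against 1.93, 1.64 and 0.434 CPM in control replicates 1 to 3. The lowest S-SCAM KD culture was 4.66 times the highest control, so the groups did not overlap. Its log2 fold change was 4.54 (SE 0.77), with 3.80 to 5.02 when 1 culture was left out. The difference was thus larger for the enzyme that removes ISG15 than for Isg15, a comparison of estimates that was not tested.

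The enzymes that attach ISG15 were also measured. The activating enzyme Uba7 stood at 8.67, 1.35 and 6.24 CPM in S-SCAM KD cultures and 2.92, 1.48 and 1.03 CPM in control cultures (log2 fold change 1.57, SE 0.68). The conjugating enzyme Ube2l6 stood at 32.8, 7.34 and 27.7 CPM in S-SCAM KD cultures and 8.02, 10.2 and 3.24 CPM in control cultures (1.67, SE 0.59). In both genes S-SCAM KD replicate 2 was inside the control range. Trim25, a ligase that can attach ISG15 and that also acts with the RNA sensor RIG-I, stood at 14.96, 5.54 and 11.3 CPM in S-SCAM KD cultures and 2.80, 1.97 and 1.15 CPM in control cultures, without overlap (2.42, SE 0.48). None of the 3 was called by edgeR. All 3 were higher at an unadjusted p under 0.05, against 3.69% of all genes. DESeq2 called Trim25 alone (adjusted p = 0.000174), and it called 0.249% of all genes higher.

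Mx1 and Mx2 are neighbours on chromosome 11, at 41398738 to 41420543 and 41546197 to 41570078, with 125.65 kb between them. Mx1 stood at 7.37, 1.25 and 3.72 CPM in S-SCAM KD replicates 1 to 3, against 1.11, 1.64 and 1.34 CPM in control replicates 1 to 3. The S-SCAM KD replicate 2 culture was within the control range, and the log2 fold change of 1.59 (SE 0.61) was 0.89 without S-SCAM KD replicate 1 and 2.06 without S-SCAM KD replicate 2.

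Mx2 stood at 153, 14.4 and 140 CPM in S-SCAM KD replicates 1 to 3, against 58.2, 10.4 and 22.9 CPM in control replicates 1 to 3. The S-SCAM KD culture of replicate 2 was below 2 of the 3 controls, and control replicate 1 was 5.58 times control replicate 2. The log2 fold change was 1.74 (SE 0.84), with 1.36 without control replicate 2 and 2.61 without control replicate 1. Mx1 and Mx2 had the smallest log2 fold changes of the 9 tested members. The proteins are alike, and how reads that match both genes were counted is not given.

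Ifi27 (chromosome 6, 136548421 to 136554959), whose promoter window holds 2 separate ISRE matches, was counted most often of the members, with 26774 counts over the S-SCAM KD cultures and 1777 over the control cultures. It stood at 490, 117 and 635 CPM in S-SCAM KD replicates 1 to 3, against 37.2, 36.6 and 16.9 CPM in control replicates 1 to 3. The groups did not overlap, and even S-SCAM KD replicate 2 was 3.16 times the highest control. The log2 fold change was 3.78 (SE 0.62), with 3.33 to 4.26 when 1 culture was left out.

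The next gene on the chromosome, Ifi27l2b, begins 1.876 kb further on and belongs to the same family. It stood at 59.7, 2.70 and 26.8 CPM in S-SCAM KD cultures and 2.38, 12.3 and 0.276 CPM in control cultures. Unlike those of Ifi27, its groups overlapped, with control replicate 2 above S-SCAM KD replicate 2 (log2 fold change 2.63, SE 1.26).

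Bst2 (chromosome 16, 19800348 to 19803919), with overlapping ISRE matches and the only gamma-activated site among the 5 promoters, stood at 62.0, 15.6 and 59.7 CPM in S-SCAM KD replicates 1 to 3, against 1.44, 4.76 and 1.03 CPM in control replicates 1 to 3. All S-SCAM KD cultures were above all controls, and control replicate 2 was the highest control. The log2 fold change was 4.32 (SE 0.73), with 3.96 to 5.23 when 1 culture was left out.

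Rtp4 (chromosome 11, 80084427 to 80096284) stood at 16.7, 2.91 and 13.9 CPM in S-SCAM KD replicates 1 to 3, against 3.04, 1.07 and 0.750 CPM in control replicates 1 to 3. The overlap was narrow, since S-SCAM KD replicate 2 was 0.957 times control replicate 1 and above the other controls. The log2 fold change was 2.76 (SE 0.74), with 2.38 to 3.63 when 1 culture was left out.

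Lgals9 (chromosome 10, 66863439 to 66886611) stood at 39.5, 7.52 and 33.5 CPM in S-SCAM KD replicates 1 to 3, against 3.29, 1.80 and 0.790 CPM in control replicates 1 to 3. The groups did not overlap, and the lowest S-SCAM KD culture was 2.29 times the highest control. The log2 fold change was 3.76 (SE 0.71), with 3.40 to 4.43 when 1 culture was left out.

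Other galectins had smaller estimates. Among 9 other galectin genes, 4 passed the filter, and their log2 fold changes were 0.93 (SE 0.73) for Lgals3, 0.28 (SE 0.51) for Lgals1, -0.42 (SE 0.20) for Lgalsl and -0.81 (SE 0.28) for Lgals8, none called by edgeR or DESeq2. Lgals1 was at -0.31 without S-SCAM KD replicate 3. Lgals5, a close relative of Lgals9 in the rat, had 2 counts over all libraries.

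The cultures differed in how far all members moved. Averaged over the 9 tested members, the log2 level above or below the control mean came to 3.92, 1.44 and 3.39 in S-SCAM KD replicates 1 to 3 and to 0.48, 0.24 and -0.72 in control replicates 1 to 3. S-SCAM KD replicate 1 was the highest S-SCAM KD culture in 8 of the 9 members, where 25.4% of all genes tested had this order, and in Ifi27 it was replicate 3. The lowest was S-SCAM KD replicate 2 in 8 of the 9, against 35.2% of all genes, and in Ifit1 it was replicate 3. Among controls, replicate 3 was the lowest in 7 of the 9 members, against 29.1% of all genes, and the highest was replicate 1 in 5 members and replicate 2 in 4. The members thus shared much of the order of the cultures within each group. Over the 6 cultures the correlation between pairs of members ran from 0.556 to 0.988 with a median of 0.886, which includes the difference between the groups that chose them.

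The level of the members did not follow the order of Magi2 within the S-SCAM KD group. S-SCAM KD replicate 2 had the lowest Magi2, at 25.0% of the control mean, and the lowest mean of the members. Replicate 1 had Magi2 at 36.0% and the highest mean of the members, and replicate 3 had Magi2 at 47.9% and a mean of the members close to that of replicate 1. Among controls, replicate 3 had the highest Magi2 and the lowest mean of the members, while replicates 1 and 2 did not keep that order. The cultures formed 2 separate clusters of 3 by Magi2, so no relation over the 6 cultures was computed, and 3 cultures a group are too few for one within a group.

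**Figure D2:**
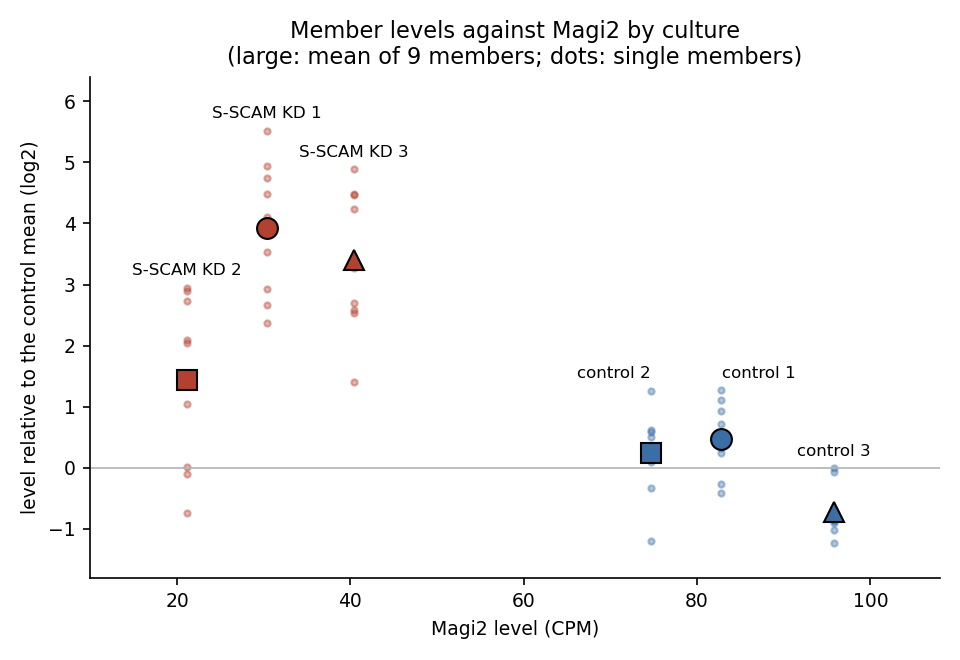
Level of the 9 tested members relative to the control mean (log2, vertical axis) against Magi2 in CPM (horizontal axis), with small dots for single members and a large symbol for their mean in each culture. The S-SCAM KD cultures (red) lie between 21.1 and 40.4 CPM of Magi2 and the control cultures (blue) between 74.7 and 95.8 CPM, and the culture with the lowest Magi2 has the lowest mean of its group, at 1.44.

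Outside the members, 145 symbols of the interferon pathway were listed from ligand to effector, and 122 rows of the table matched, of which 85 were tested. Their median log2 fold change was 0.90, with 67 higher and 18 lower in mean. The edgeR test called 0 of the 85. Before adjustment, 30 passed 0.05 with a higher mean and 3 with a lower mean, against 3.69% and 7.14% of all genes. DESeq2 called 11 higher and 0 lower, against 0.249% and 1.07% of all genes. With 1 culture left out it made 5 to 28 calls. The 28 came without S-SCAM KD replicate 2, where 0.326% of all genes were called higher. The 5 came without S-SCAM KD replicate 1, where the share was 0.105%. Every S-SCAM KD culture was above every control culture in 11 of them and below in 4, against 7.42% and 10.2% of all genes.

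Interferon RNA was at or near 0 at this depth. Of 8 ligand genes in the table, Ifnb1, Ifna1, Ifna4, Ifnk and Ifnl3 had 0 counts in all 6 libraries, and Ifna5, Ifne and Ifng had 1 count each. A count of 0 allows up to 3 counts, which is 0.104 CPM in S-SCAM KD replicate 2, the deepest library, and 0.246 CPM in control replicate 2, the shallowest. RNA was sampled once, at DIV9, and earlier times were not measured.

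The table held 6 interferon receptor genes, and the 5 that passed the filter were counted in every culture. Among them the type I receptor chain Ifnar1 stood at 239, 214 and 132 CPM in S-SCAM KD replicates 1 to 3 and 237, 131 and 183 CPM in control replicates 1 to 3. Its partner chain, Ifnar2, stood at 18.97, 16.7 and 12.3 CPM in S-SCAM KD cultures and 19.1, 12.6 and 18.3 CPM in control cultures. Both overlapped over most of their range, with log2 fold changes of 0.09 (SE 0.29) and -0.07 (SE 0.27), whose signs depended on single cultures. The others were Ifngr1 at 0.51 (SE 0.25), Ifngr2 at -0.09 (SE 0.19) and Il10rb at -0.21 (SE 0.38).

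Among 15 signal transducers the median was 0.11, and the genes went both ways. Irf9, a DNA-binding factor of the type I interferon response, stood at 95.7, 18.8 and 39.0 CPM in S-SCAM KD cultures and 21.0, 11.98 and 11.1 CPM in control cultures (log2 fold change 1.80, SE 0.55, DESeq2 adjusted p = 0.0328). Irf7, which amplifies interferon production, stood at 16.6, 1.35 and 8.90 CPM in S-SCAM KD cultures and 1.60, 2.13 and 0.592 CPM in control cultures (2.66, SE 0.84, DESeq2 adjusted p = 0.0196). In both genes S-SCAM KD replicate 2 lay within the control range. Stat2, which binds DNA together with IRF9, was at 0.71 (SE 0.40) and was not called by either tool. In the other direction, the receptor kinase Jak1 stood at 100, 57.5 and 148 CPM in S-SCAM KD cultures and 237, 215 and 215 CPM in control cultures, without overlap (-1.12, SE 0.32). Irf5, a factor of immune cells, was at -1.45 (SE 0.43), with groups that did not overlap. Its levels were low, at 0.542, 0.416 and 0.575 CPM in S-SCAM KD cultures and 1.11, 1.89 and 1.26 CPM in control cultures. Neither Jak1 nor Irf5 was called by edgeR or DESeq2 here, although the study's own DESeq2 list from these libraries holds Jak1 as lower.

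The 12 nucleic acid sensors and adaptors tested had a median of 0.73. The RIG-I family members Dhx58, Ddx58 and Ifih1, which detect double-stranded RNA, were at 2.27 (SE 0.67), 1.33 (SE 0.58) and 1.24 (SE 0.53), and Dhx58 was called by DESeq2 (adjusted p = 0.0163). For all 3 genes S-SCAM KD replicate 2 was inside the control range. The other effectors were the largest list, with 51 tested, 47 higher in mean and a median of 1.08. They include the oligoadenylate synthetases, a family whose active members make the activator of RNase L. Oas1b stood at 70.2, 7.79 and 26.6 CPM in S-SCAM KD cultures and 3.00, 1.72 and 1.11 CPM in control cultures (4.15, SE 0.79). Oas1a stood at 28.6, 4.85 and 21.8 CPM in S-SCAM KD cultures and 1.32, 1.15 and 0.158 CPM in control cultures (4.43, SE 0.85). In both genes all S-SCAM KD cultures were above all controls. The related Oasl was at 4.06 (SE 0.69), without overlap but on low levels. It stood at 2.44, 0.797 and 3.41 CPM in S-SCAM KD cultures and 0.164, 0.082 and 0.118 CPM in control cultures. In control replicates 2 and 3 that is at most 3 counts, so the estimate is uncertain. Zc3hav1, which binds CpG-rich viral RNA, was at 2.65 (SE 0.42), also without overlap. These 4 had the smallest unadjusted edgeR p of the list. DESeq2 called all 4, and edgeR called none (adjusted p = 0.228 for each). Of the whole list DESeq2 called 7 higher, against 0.249% of all genes. The Oas1 genes are near copies of one another, and how reads that match several of them were counted is not given, so their single values are uncertain.

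As a neighbouring program, 10 tested targets of NF-kB, a factor of inflammatory signalling, had a median of -0.07, with 4 higher and 6 lower in mean and none called by edgeR at an unadjusted p under 0.05 or by DESeq2. The genes with the smallest p were Icam1 (log2 fold change 0.56, SE 0.45), Tnfaip3 (-0.41, SE 0.37), Sod2 (-0.14, SE 0.18) and Birc3 (0.41, SE 0.60).

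**Figure D3:**
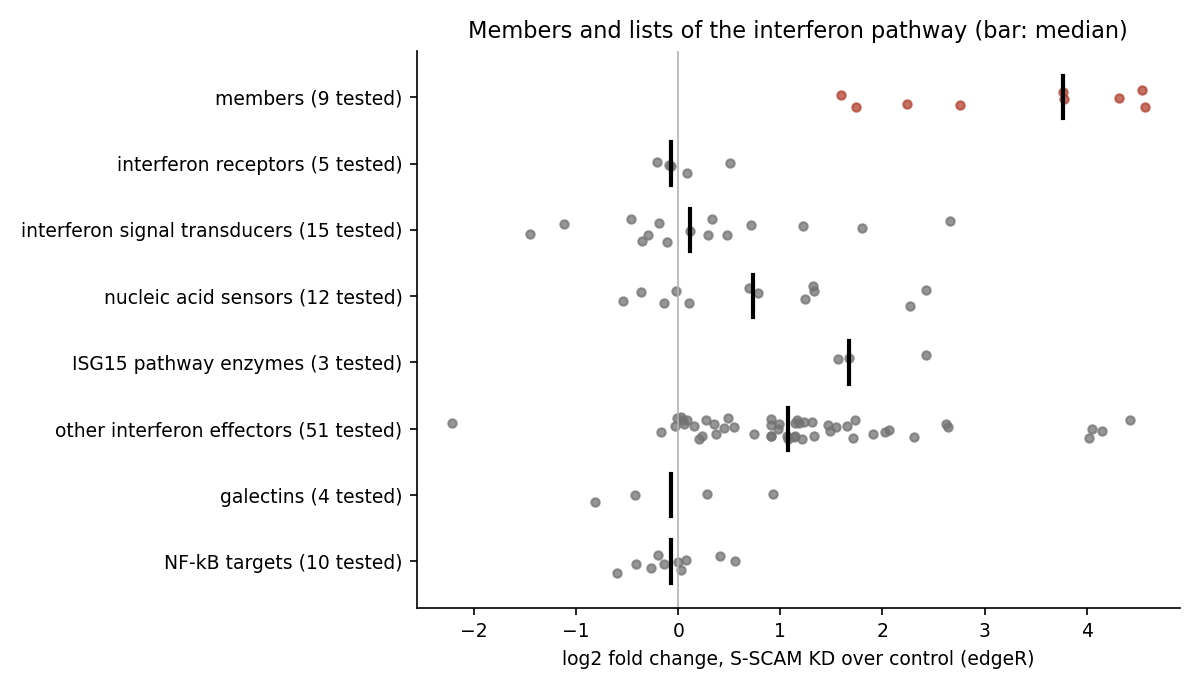
Log2 fold change of S-SCAM KD over control (horizontal axis, edgeR) for each tested gene, with 1 row for the members and 1 for each list and a black bar for the median. The 9 members lie between 1.59 and 4.57 because they were chosen for it, the receptors and NF-kB targets lie around 0 with medians of -0.07, and the other effectors spread upward with a median of 1.08. Trim25 appears in 2 rows.

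The cultures were mixed, and the glial markers moved between them. The 12 neuron markers tested were counted in all cultures, with summed levels of 6392 to 8882 CPM in S-SCAM KD and 5668 to 8833 CPM in control cultures. Of these, 6 were higher and 6 lower in mean, with a median log2 fold change of -0.09. Every S-SCAM KD culture was below every control culture in 3 and above in 0, against 10.2% and 7.42% of all genes. At an unadjusted p under 0.05 edgeR counted 1 as lower, and 0 were called by edgeR or DESeq2. The 8 astrocyte markers summed to 8404, 2529 and 6444 CPM in S-SCAM KD replicates 1 to 3 and 13414, 6244 and 6119 CPM in control replicates 1 to 3. The S-SCAM KD culture with the lowest members, replicate 2, thus also had the lowest astrocyte sum. All 8 markers had a lower mean in S-SCAM KD cultures, and none was called by edgeR, at an unadjusted p under 0.05 or by DESeq2.

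The microglia markers had lower means in S-SCAM KD cultures, with sums that overlapped. The sum of 14 markers in the table was 8.67, 1.11 and 3.41 CPM in S-SCAM KD replicates 1 to 3 and 94.8, 16.7 and 7.78 CPM in control replicates 1 to 3, so that S-SCAM KD replicate 1 was above control replicate 3 and control replicate 1 stood far above the rest. All 9 tested markers were lower in mean, with a median log2 fold change of -3.53. The edgeR test called 0, with 9 lower at an unadjusted p under 0.05, against 7.14% of all genes. DESeq2 called 3 lower, against 1.07% of all genes. In 3 of the 9, every S-SCAM KD culture was below every control culture, against 10.2% of all genes. Markers at 0 counts numbered 3, 6 and 1 of the 14 in S-SCAM KD replicates 1 to 3 and 0, 1 and 1 in control replicates 1 to 3. In S-SCAM KD replicate 2 these were C1qc, Cx3cr1, Itgam, P2ry12, Ptprc and Tyrobp, and the other 8 were above 0. Within each group the order of the cultures was the same by microglia sum, by astrocyte sum and by mean of the members. Replicate 1 was the highest in each, and control replicates 2 and 3 were close in astrocyte sum, at 6244 and 6119 CPM. In bulk RNA, fewer cells of a type and less RNA per cell cannot be told apart, and the part of these cells in the levels of the members was not tested.

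Of the remaining marker lists, fibroblast markers summed to 26.3 to 109.6 CPM in S-SCAM KD cultures and 110.0 to 123.0 CPM in control cultures, without overlap. Of 6 tested, 4 had every S-SCAM KD culture below every control culture, against 10.2% of all genes. The median log2 fold change over the list was -1.32. At an unadjusted p under 0.05 edgeR counted 4 as lower, against 7.14% of all genes, and 0 were called by edgeR or DESeq2. Oligodendrocyte lineage markers summed to 549 to 1616 CPM in S-SCAM KD cultures and 504 to 1466 CPM in control cultures, and endothelial markers to 2.94 to 5.10 CPM in S-SCAM KD cultures and 3.36 to 22.1 CPM in control cultures.

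**Figure D4:**
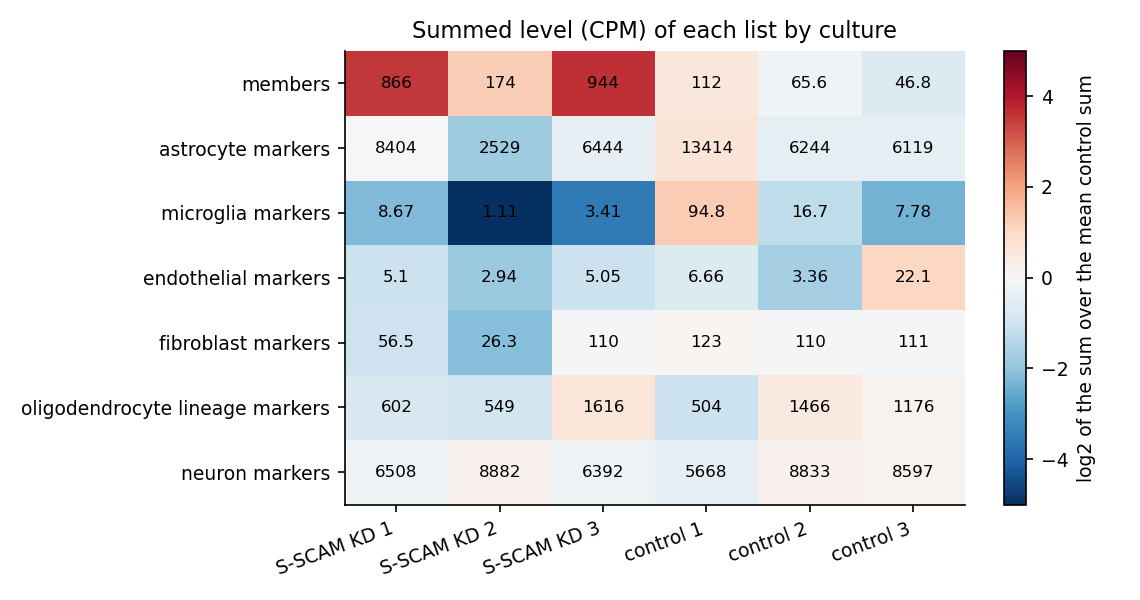
Summed level in CPM (printed numbers) of the 10 members and of each marker list in the 6 cultures, S-SCAM KD on the left, with colour for the log2 of the sum over the mean control sum. The members sum to 866, 174 and 944 CPM in S-SCAM KD cultures and 112, 65.6 and 46.8 CPM in control cultures, while the microglia sums overlap between the groups, with control replicate 1 highest at 94.8 CPM, and astrocyte markers are lowest in S-SCAM KD replicate 2.

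Genes outside the members were ranked by how closely their log2 CPM followed the mean of the members over the 6 cultures, among 11905 tested genes with a name and a mean of at least 1 CPM. The 10 closest were Oas1b (Pearson r 0.990), Trim25 (0.988), Oas1a (0.985), Apol9a (0.982), Skiv2l (0.980), Lgals3bp (0.980), RT1-A (0.977), Shfl (0.974), Nanos3 (0.973) and Zc3hav1 (0.972). Of these 10, 6 are in the pathway lists above. RT1-A encodes a class I histocompatibility antigen, which presents peptides to T cells. It stood at 75.1, 24.6 and 65.9 CPM in S-SCAM KD cultures and 18.6, 13.4 and 5.21 CPM in control cultures.

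The closeness of a pattern was separate from its size. Skiv2l, an RNA helicase, stood at 75.6, 67.4 and 74.3 CPM in S-SCAM KD cultures and 61.0, 62.4 and 55.4 CPM in control cultures, a log2 fold change of 0.28. Shfl, an inhibitor of ribosomal frameshifting, and the RNA-binding gene Nanos3 had log2 fold changes of 0.34 and 0.43. With 6 cultures many genes can share 1 order, and 16 candidates, 8 of them among these 10, had a Spearman rank correlation of 1. Between 3 and 6 of the 10 remained among the 10 closest when 1 culture was left out. All points share the libraries and the difference between the groups, so these values are a description.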

How the data were processed

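RNA-seq was measured in 6 cultures grouped by their labels. Libraries were made with a TruSeq kit that does not mark strand and sequenced single-end, so reads of overlapping or antisense genes cannot be told apart. The authors aligned reads with STAR 2.3.0 to rn5 and counted them with HTSeq 0.6, and the deposited values are raw counts per gene without normalization. The Ensembl release and the overlap mode are not given in the sources used here, and the deposited gene lengths include introns, so levels were not compared between genes. The authors tested with DESeq2 1.8.1, and their list of called genes is not the same as that of DESeq2 here.

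Total counts ran from 13061705 to 29654651 per library, 6675 of 26405 genes had no count, and mitochondrial genes took 4.94% to 9.81%. No per-sample column was left out. Genes were named by symbol, description or RefSeq identifier, and 6244 had no name. Counts were compared in R 4.3.3 by the quasi-likelihood test of edgeR 4.0.16 (TMM, filterByExpr with a minimum of 10 counts, condition only), with Benjamini-Hochberg adjustment over 13917 genes at 0.05. DESeq2 1.42.0 (Wald test, 14832 genes with an adjusted p) was the other test. The edgeR step was tested on simulated counts with planted changes, and the promoter search on short made-up sequences. Floors of 3 counts cover counting error only.

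The members and the gene lists were chosen with earlier results of these data known. The text names all members and Magi2, up to 4 genes of each list with the smallest unadjusted p, genes whose role is explained, and the 10 genes closest to the members in pattern (log2 CPM with a prior count of 2). Neighbours and near copies of members and the microglia markers at 0 were named after their values were seen. Herc6 was not matched, and 1 listed gene is not reported here. Promoters came from RefSeq (GRCr8). Alternatives were RLE and upper-quartile normalization, 2 other filters, DESeq2, limma-voom (limma 3.58.1), a replicate block and leaving out each culture, and DESeq2 without each culture was chosen after seeing the data.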

Additional observations from a re-analysis of the deposited data

How the results depend on the processing

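The direction of all 9 tested members, and a median between 3.25 and 3.80, held under both other normalizations, both other filters, DESeq2, limma-voom and the replicate block. The counts of calls did not hold. Without a low-count filter edgeR called 8 genes, 4 members (Bst2, Ifi27, Lgals9 and Usp18) and 3 pathway genes (Oas1a, Oas1b and Zc3hav1), and DESeq2 called 195 genes, 7 members and 11 pathway genes. The cause was not tested. A minimum of 10 counts in every sample left 8 members to test and called none. When each culture was left out in turn, edgeR called 0 to 1 genes, 0 to 1 members and 0 pathway genes. The 1 call was Ifi27, without S-SCAM KD replicate 2. The median of the members ran from 3.33 to 4.24. The members whose groups do not overlap numbered 5 to 9. All 9 were separated without S-SCAM KD replicate 2, against 12% of genes. For the other cultures left out the share of all genes was not computed, so nothing is read from those counts. DESeq2 called 4 to 9 members and 5 to 28 pathway genes. It called 9 members without S-SCAM KD replicate 2 (0.326% of all genes called higher) and 6 without S-SCAM KD replicate 3 (1.47%). It called 4 without S-SCAM KD replicate 1 (0.105%) or control replicate 3 (0.0772%). With 1 culture left out the log2 fold change of some genes near 0 turned sign, over ranges of -0.43 to 0.13 in Il10rb, -0.21 to 0.0058 in Ifngr2, -0.087 to 0.31 in Ifnar1, -0.31 to 0.71 in Lgals1 and -0.21 to 0.093 in Ifnar2. A replicate block gave 0 calls (1686 genes at an unadjusted p under 0.05) and a median of 3.57. In the deposited column names each control culture shares its number with the S-SCAM KD culture of the same replicate. Whether this marks a shared preparation is not stated in the sources used here. Deviations of same-numbered cultures correlated at 0.607, 0.101 and -0.09, which with 3 cultures a group cannot decide whether they were pairs. The main test left the pairing out. S-SCAM KD replicate 2 deviated most like control replicate 3 and S-SCAM KD replicate 3 most like control replicate 2. With the 250 bases before the start alone, the same 4 promoters of members and 3.41% of all promoters held the ISRE letters. The non-overlap count uses no test but covers only genes that passed the low-count filter, and it was not repeated under other filters or tools. Depth limits small differences in Ifit3, in Ifit1 and Oasl in control cultures and in the ligands, and 3 cultures a group limit all estimates.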
